A study of Mus musculus with 84 samples.

Results

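A set of 9 genes of chromatin enzymes named in work on ethanol drinking was followed in the central amygdala (the central nucleus, CeA) of mice that had chosen between water and ethanol for 13 weeks. They were Dnmt1, Dnmt3a, Tet1, Tet2, Tet3, Hdac2, Hdac4, Prdm2 and Kdm6b. They were chosen by symbol, and 9 of 9 were found among the 43629 genes of the count table. All 9 passed the filter on low counts, which kept 16320 genes. The 84 animals, 43 females and 41 males, were HS-CC mice, a heterogeneous stock bred from the Collaborative Cross. Median age was 15 weeks at the start of testing in both sexes. Every animal drank: each had been introduced to 5% ethanol, then had free access to 10% ethanol beside water until it was killed, and no ethanol-naive group is among the samples. One library was made per animal from a nucleus cut out of stained frozen sections by laser, with stranded, poly(A)-selected RNA, and up to 3 animals came from 1 family.

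Cytosine methylation in mammals is laid down de novo by Dnmt3a, copied after replication by Dnmt1, and oxidised by the Tet enzymes on the way to its removal. Hdac2 is a nuclear class I histone deacetylase found in corepressor complexes, while Hdac4 is a class IIa enzyme that moves between cytoplasm and nucleus and binds Mef2 transcription factors. Prdm2 methylates histone H3 at a lysine linked to silencing, and Kdm6b removes the repressive methyl mark that Polycomb proteins place on another lysine. Blocking DNA methyltransferases lowers ethanol drinking in rodents, amygdalar Hdac2 has been tied to drinking and anxiety in alcohol-preferring rats, and Prdm2 in the frontal cortex to intake in dependent rats.

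Promoter windows are shown for 4 of the genes, picked from the pattern of shared variation described further on: Dnmt3a, Tet2 and Tet3 varied together, and Hdac2 varied against them. Hdac4, Prdm2 and Kdm6b also had pairs at the ends of that pattern. The window of Hdac4 is not shown, and none was matched for Prdm2 or Kdm6b. Each window is RefSeq sequence on GRCm38.p6, from 250 bases before to 50 bases after an annotated start, read 5′ to 3′ on the gene's strand, and capitals mark CpG dinucleotides, the sites that Dnmt and Tet enzymes act on. The windows are chr12:3806730-3807029 on the + strand for Dnmt3a, chr3:133544341-133544640 on the - strand for Tet2, chr6:83441629-83441928 on the - strand for Tet3 and chr10:36974294-36974593 on the + strand for Hdac2.
Dnmt3a: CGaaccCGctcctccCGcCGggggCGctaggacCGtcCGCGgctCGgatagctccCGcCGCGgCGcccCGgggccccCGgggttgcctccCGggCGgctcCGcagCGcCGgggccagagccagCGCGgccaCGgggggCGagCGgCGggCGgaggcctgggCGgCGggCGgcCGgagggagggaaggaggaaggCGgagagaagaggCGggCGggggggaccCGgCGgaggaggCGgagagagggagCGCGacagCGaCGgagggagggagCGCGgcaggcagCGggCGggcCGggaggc
Tet2: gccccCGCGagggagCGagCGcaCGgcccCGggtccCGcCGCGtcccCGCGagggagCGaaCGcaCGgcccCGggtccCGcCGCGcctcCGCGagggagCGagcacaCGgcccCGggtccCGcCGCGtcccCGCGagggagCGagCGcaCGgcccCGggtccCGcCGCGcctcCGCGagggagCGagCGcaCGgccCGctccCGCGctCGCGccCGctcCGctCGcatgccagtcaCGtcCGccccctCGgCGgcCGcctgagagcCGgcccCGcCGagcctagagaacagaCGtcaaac
Tet3: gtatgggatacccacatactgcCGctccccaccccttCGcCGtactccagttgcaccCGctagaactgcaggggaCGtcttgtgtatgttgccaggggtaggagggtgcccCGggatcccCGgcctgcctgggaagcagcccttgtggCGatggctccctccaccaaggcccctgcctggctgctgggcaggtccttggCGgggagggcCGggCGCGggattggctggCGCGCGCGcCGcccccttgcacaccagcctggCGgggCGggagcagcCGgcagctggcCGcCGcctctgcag
Hdac2: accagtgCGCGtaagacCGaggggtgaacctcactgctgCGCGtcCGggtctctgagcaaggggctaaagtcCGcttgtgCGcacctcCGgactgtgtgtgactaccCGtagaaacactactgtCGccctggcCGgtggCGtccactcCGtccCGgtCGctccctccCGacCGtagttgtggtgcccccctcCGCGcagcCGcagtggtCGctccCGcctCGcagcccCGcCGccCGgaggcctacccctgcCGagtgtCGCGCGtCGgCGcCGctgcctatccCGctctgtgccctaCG

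The Dnmt3a window held 46 CpG, that of Tet2 57, that of Tet3 22 and that of Hdac2 36, where the median over 32841 RefSeq promoter windows of the same length was 7, with quartiles of 3 and 20. Dnmt3a has 3 annotated starts, and the other windows, from chr12:3806910 and chr12:3891494, held 47 and 18 CpG. In all, 11 windows of 7 of the 9 genes were matched by symbol. Their CpG counts ran from 2, at the most upstream of 3 Dnmt1 starts, to the 57 of Tet2. The GC box, spelled GGGCGG and searched on both strands with overlaps counted, occurred 6 times in the Dnmt3a window shown (7 and 2 times at its other starts), 1 time in that of Tet2, 2 times in that of Tet3 and 1 time in that of Hdac2. At least 1 copy was present in 35.7% of all windows.

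Total counts per library ran from 24118965 to 36924667 in females and from 24829435 to 42036566 in males, with counts for 20332 to 21785 genes. Gad1, Gad2 and Slc32a1, which mark the inhibitory neurons that make up most of the CeA, were counted in all animals, with medians of 478, 271 and 207.1 CPM (counts scaled to a common library size) in females and 504, 337 and 235.9 CPM in males. Of the markers of CeA neuron types, Sst had medians of 367 CPM in females and 345 CPM in males, while Prkcd and Crh were lower, at medians of 18.2 and 7.34 CPM in females and 18.7 and 6.38 CPM in males. Slc17a7, a marker of excitatory neurons of the neighbouring basolateral amygdala and cortex, had medians of 1362 CPM in females and 1352 CPM in males. It ran from 13.0 to 2404 CPM over all animals. In both sexes its median was above those of Gad1, Gad2 and Slc32a1, so the levels below are not those of CeA neurons alone. Ttr, which marks choroid plexus, ran from 0.302 to 18855 CPM in females and from 0.0988 to 23631 CPM in males. Markers of neighbouring tissue thus differed widely between libraries, and in bulk samples fewer cells of a type and less RNA per cell cannot be told apart. Xist and Ddx3y counts matched the sex label of every animal. The titles carry sample-sheet numbers that climb in 4 runs, each with 7 to 16 animals of either sex, and what a run stands for is not stated. Male replicate 39 stood apart from the other libraries in earlier results of these data, and the tests of drinking and sex and the pair correlations were also run without it.

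Levels are first given per length, as RPKM, which is CPM divided by exon length, so that the genes can be set beside each other. The length is that of all annotated exons of a gene merged, which need not be that of the transcripts present. Hdac2 was the highest, with a median of 18.9 RPKM over the 84 animals, above 80.2% of the genes tested. Dnmt1 followed at 10.0 RPKM and Prdm2 at 8.71 RPKM. Kdm6b at 4.53 RPKM, Hdac4 at 3.97 RPKM, Dnmt3a at 3.97 RPKM and Tet3 at 3.58 RPKM lay just under the median of all genes tested, 4.99 RPKM. Tet2 had 2.48 RPKM, and Tet1 was the lowest at 0.523 RPKM, with 15.2% of genes lower. The order in between depends on the length used. In CPM the median of Dnmt3a, 66.0, was above those of Prdm2 (64.6), Dnmt1 (63.3), Hdac4 (61.1) and Kdm6b (31.5).

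The order in RPKM held in every animal at 4 of its 8 steps, namely Hdac2 above Dnmt1, Prdm2 above Kdm6b, Tet3 above Tet2 and Tet2 above Tet1. Dnmt1 exceeded Prdm2 in 71 of 84 animals, Kdm6b exceeded Hdac4 in 60 and Dnmt3a exceeded Tet3 in 62. Hdac4 and Dnmt3a changed places from animal to animal, with Hdac4 the higher in 46 of 84. Only between Tet2 and Tet1 did the ranges over animals not meet, 1.41 to 3.48 RPKM for Tet2 against 0.285 to 0.873 RPKM for Tet1. The 3 Tet genes thus stood in the order Tet3, Tet2, Tet1 in all 84 animals.

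**Figure D1:**
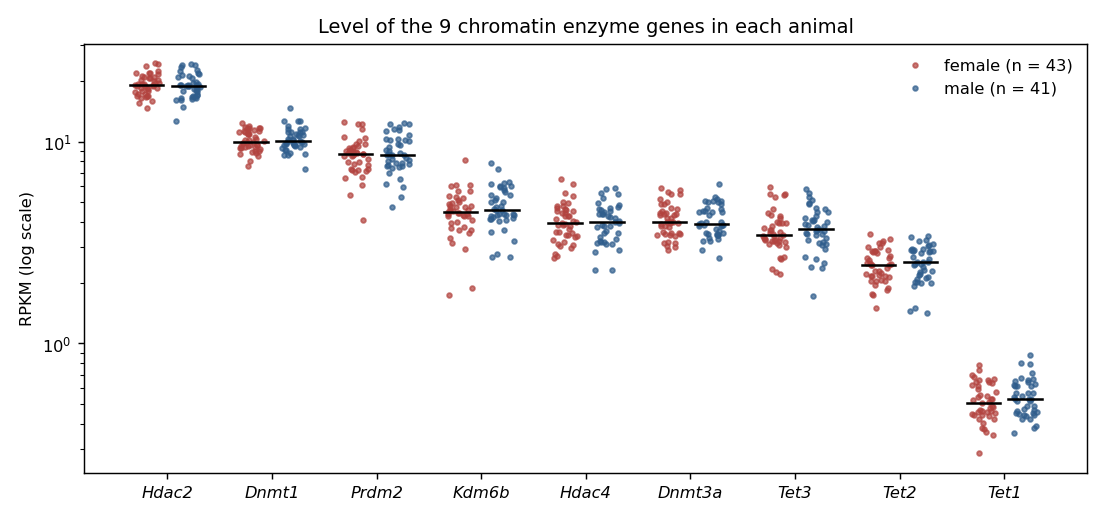
Level of each of the 9 genes in each animal in RPKM on a log axis, females left of males, with a black bar at the median. Hdac2 lies highest and Tet1 lowest, and within every gene the points of 43 females and 41 males overlap over nearly their whole range.

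The maintenance methyltransferase Dnmt1 (ENSMUSG00000004099, chr9:20907206-20959888, - strand, GRCm38) had 47.5, 63.2 and 77.6 CPM as lowest, median and highest value in females and 46.2, 63.5 and 92.8 CPM in males. The sexes overlapped over most of their range, with 4 males above the highest female, and the highest value, in male replicate 31, stood apart from the others. The de novo enzyme Dnmt3a (ENSMUSG00000020661, chr12:3806007-3914443, + strand) had 48.3, 66.7 and 97.9 CPM in females and 44, 65.2 and 103 CPM in males. Female over male, the log2 difference was -0.03 ± 0.04 (SE) for Dnmt1 and 0.01 ± 0.06 for Dnmt3a, neither past the threshold (edgeR adjusted p = 0.986 and 0.991).

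Of the Tet enzymes, Tet1 (ENSMUSG00000047146, chr10:62804570-62899118, - strand) had 4.20, 7.46 and 11.4 CPM in females and 5.32, 7.84 and 12.8 CPM in males, from 135 to 432 counts a library. Tet2 (ENSMUSG00000040943, chr3:133463679-133544390, - strand) had 13.8, 22.4 and 31.9 CPM in females and 13.0, 23.2 and 31.4 CPM in males. Tet3 (ENSMUSG00000034832, chr6:83362373-83459084, - strand) had 26.6, 41.6 and 71.1 CPM in females and 20.7, 44.3 and 69.6 CPM in males. Each of the 3 medians was slightly lower in females, but the ranges overlapped almost fully. The female over male log2 difference was -0.07 ± 0.07 for Tet1, -0.03 ± 0.06 for Tet2 and -0.04 ± 0.07 for Tet3 (edgeR adjusted p = 0.986, 0.991 and 0.986).

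The deacetylase Hdac2 (ENSMUSG00000019777, chr10:36974544-37001889, + strand) had 65.9, 85.5 and 109 CPM in females and 56.6, 84.3 and 108 CPM in males. Its lowest value came from male replicate 19, and the next lowest was 65.9 CPM. Hdac4 (ENSMUSG00000026313, chr1:91928779-92180341, - strand) had 40.8, 61.0 and 100.3 CPM in females and 35.7, 61.3 and 91.0 CPM in males. An antisense gene, Gm26720, shares 3536 exon bases with Hdac4, 23% of its exons, and was listed at 0 in every library. The strand setting of the counting is not given, so how reads over the shared bases were counted is not known. The CPM and RPKM of Hdac4 may be affected. The female over male log2 difference was 0.02 ± 0.04 for Hdac2 and 0.01 ± 0.07 for Hdac4 (edgeR adjusted p = 0.986 and 0.997).

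The methyltransferase Prdm2 (ENSMUSG00000057637, chr4:143107391-143212995, - strand) had 30.4, 64.8 and 93.0 CPM in females and 35.1, 63.9 and 92.3 CPM in males. The demethylase Kdm6b (ENSMUSG00000018476, chr11:69398508-69413675, - strand) had 12.1, 31.1 and 56.3 CPM in females and 18.7, 31.7 and 54.6 CPM in males. Female replicate 41 was the lowest animal for both genes. The female over male log2 difference was -0.04 ± 0.07 for Prdm2 and -0.10 ± 0.08 for Kdm6b (edgeR adjusted p = 0.986 for both), so 0 of 9 genes differed by sex, where 0.0919% of all genes tested (15 genes) did. No gene of the 9 had an unadjusted p under 0.05 for sex, and DESeq2 and limma-voom also called 0. The 95% intervals of the 9 sex differences lay between -0.25 and 0.14 on the log2 scale.

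The spread between animals was mostly that of an ordinary gene. Over the 84 animals the coefficient of variation of CPM was 12.4% for Dnmt1 and 12.8% for Hdac2, against a median of 22.3% over all genes tested, and 15.5% and 17.3% of genes had a smaller one. The other 7 genes lay close to that median: 18.8% for Dnmt3a, 19.6% for Tet2, 20.7% for Prdm2, 21.6% for Tet1, 21.9% for Hdac4, 24% for Tet3 and 24.3% for Kdm6b. The highest animal exceeded the lowest 1.93-fold for Hdac2, 2.01-fold for Dnmt1 and 4.65-fold for Kdm6b.

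Counting error gave only a small part of this spread, from 1.06% of the variance of Hdac4 to 8.56% of that of Tet1, the gene with the fewest counts. edgeR's biological coefficient of variation was below the trend for genes of the same abundance in Dnmt1 (12.6% against 21.8%), Hdac2 (13.1% against 21.4%), Tet1 (21.3% against 39.5%) and Tet2 (20.1% against 26.5%). It was closer to the trend for the other 5, as in Hdac4 (21.8% against 21.9%) and Kdm6b (24.8% against 24.4%). The same animals recurred at the ends. Male replicate 35 was the lowest animal for Dnmt1, Tet2, Tet3 and Hdac4, and female replicate 38 was the highest for Tet2, Hdac4 and Kdm6b.

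Levels of 8 of the 9 genes tended to rise and fall together, and Hdac2 varied against them. With sex means removed from log2 CPM, all 28 pairs that leave out Hdac2 had a positive Pearson's r, with a median of 0.58, and all 8 pairs with Hdac2 had a negative one, with a median of -0.45. Of the 36 pairs, 25 positive and 8 negative ones passed a permutation test of 100000 orders, 2-sided and adjusted over the 36. For scale, over all 133163040 pairs of genes tested the median r was -0.0020, and 25.1% of pairs had a size of at least 0.3, against 88.9% of the 36. An r of at least 0.6 was reached by 1.59% of all pairs and by 11 of the 36. High r was not particular to pairs within the set. Each of the 9 had an r of at least 0.5 with 813 to 1992 of 13365 genes outside it.

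The highest r was that of Hdac4 and Prdm2, 0.82 (Spearman's rho 0.81), and 0.79 once the 2 animals most distant from the median of Hdac4 were left out. Tet3 and Kdm6b followed at 0.78 (rho 0.74, without 2 animals 0.76), Dnmt3a and Tet3 at 0.78 (rho 0.75, without 2 animals 0.76), Dnmt3a and Tet2 at 0.78 (rho 0.75, without 2 animals 0.76) and Tet3 and Prdm2 at 0.76 (rho 0.74, without 2 animals 0.72). Each of these 5 had a permutation p of 1e-05 for r and for rho, the smallest that 100000 orders can give, with adjusted values of 1.64e-05 and 1.89e-05. The mRNAs of Dnmt3a, Tet2 and Tet3 thus tended to be high or low in the same animals. All 5 held within each run, with r from 0.57 to 0.90.

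The lowest r was that of Hdac2 and Kdm6b, -0.54 (rho -0.52, without 2 animals -0.58). Dnmt3a and Hdac2 had -0.51 (rho -0.55, without 2 animals -0.51), Tet1 and Hdac2 -0.47 (rho -0.43, without 2 animals -0.53), Dnmt1 and Hdac2 -0.45 (rho -0.43, without 2 animals -0.47) and Tet2 and Hdac2 -0.44 (rho -0.42, without 2 animals -0.44). Their adjusted permutation p ran from 1.64e-05 to 5.54e-05 for r and from 1.89e-05 to 0.000116 for rho. These 5 were weaker in part of the data: in run 2 they lay between -0.36 and 0.08, in run 3 between -0.41 and -0.04, and in runs 1 and 4 between -0.37 and -0.70. The 3 pairs that did not pass for r were Dnmt3a and Hdac4 at 0.20, Tet1 and Prdm2 at 0.19 and Tet1 and Hdac4 at 0.06 (rho 0.15, 0.23 and 0.05), of which Tet1 and Prdm2 passed for rho (adjusted permutation p = 0.0374).

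**Figure D2:**
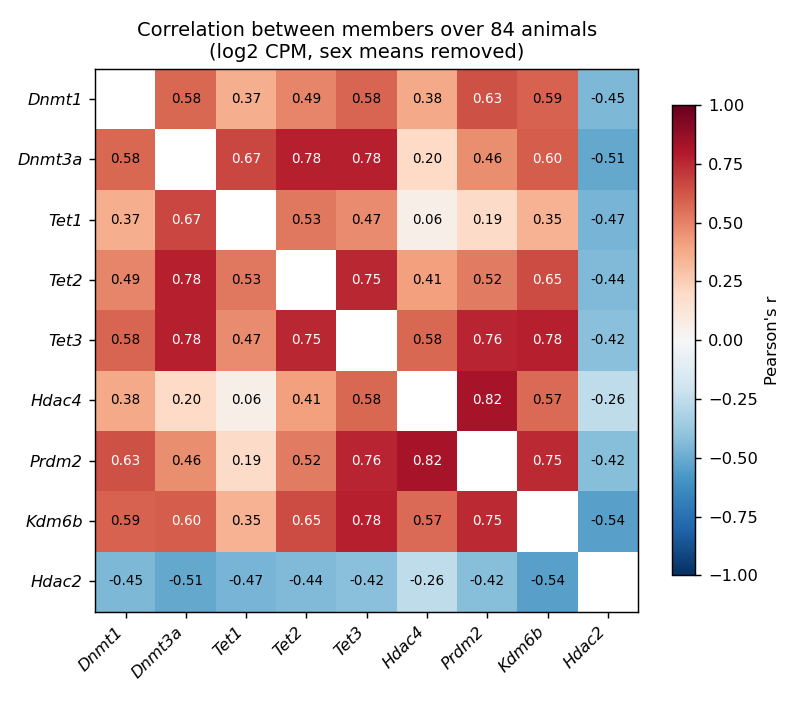
Pearson's r of log2 CPM, sex means removed, for each of the 36 pairs over 84 animals, coloured from -1 in blue to 1 in red. The row and column of Hdac2 are negative throughout, and all other pairs are positive, up to 0.82 for Hdac4 and Prdm2.

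Females and males alone gave much the same picture. In females 24 positive and 7 negative pairs passed, and in males 25 and 8. The r of Hdac4 and Prdm2 was 0.79 in females and 0.86 in males, and that of Hdac2 and Kdm6b was -0.57 in females and -0.52 in males. With run means removed as well, 27 positive and 8 negative pairs passed, and without male replicate 39, 25 and 7.

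**Figure D3:**
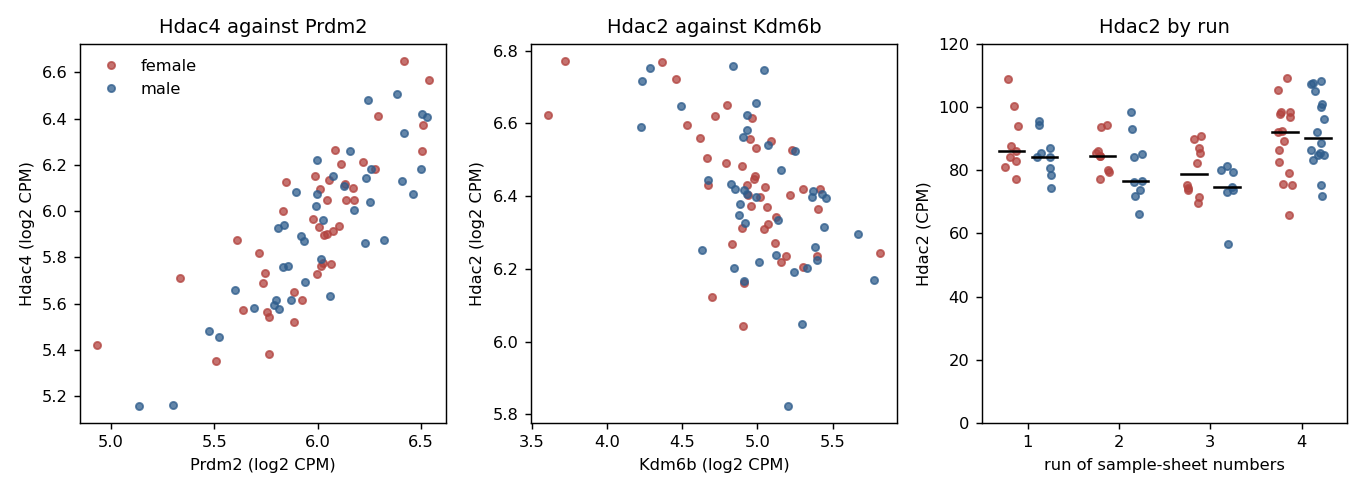
Log2 CPM of Hdac4 against Prdm2 and of Hdac2 against Kdm6b, 1 point per animal coloured by sex, and CPM of Hdac2 by run of sample-sheet numbers with a bar at each median, females left of males. The first cloud rises (r of 0.82), the second falls (r of -0.54), and Hdac2 is lowest in run 3.

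The shared variation moved with a measure of RNA make-up. A score over 55 of 56 genes of cytosolic ribosomal proteins, small and abundant mRNAs, correlated negatively with Prdm2 (r of -0.83), Tet3 (-0.83), Tet2 (-0.74), Kdm6b (-0.74), Hdac4 (-0.69), Dnmt1 (-0.63), Dnmt3a (-0.62) and Tet1 (-0.40), and positively with Hdac2 (0.54). All 9 passed the permutation test adjusted over 135 relations of genes and scores, of which 46 passed. With the 2 most distant animals left out, these r ran from -0.80 to -0.42 for the 8 genes and was 0.53 for Hdac2. Spearman's rho ran from -0.78 to -0.40 for the 8 genes and was 0.57 for Hdac2, all passing. The summed level of the list ran from 7719 to 18449 CPM in females and from 8084 to 18595 CPM in males, and none of its genes had a median count of 0. Within runs the r of the score with Prdm2 lay between -0.88 and -0.78, and with Hdac2 between 0.02 and 0.65. Another score of RNA make-up, that of nuclear-retained long RNAs, had r of 0.30 with Dnmt3a, -0.31 with Hdac4 and -0.32 with Prdm2. Their rho was 0.25, -0.37 and -0.36. All of them passed except the rho of Dnmt3a, and no other gene of the 9 passed for this score.

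When the ribosomal protein score was removed along with the sex means, a step added after the values had been seen, 14 positive and 7 negative pairs passed, 17 of them with the sign they had before. Of the 28 pairs that leave out Hdac2, 21 were then positive, and of the 8 with Hdac2, 5 were negative. Some of the 7 negative pairs that passed thus leave out Hdac2, and the lowest r was -0.40. The median r fell from 0.58 to 0.23 over the 28 pairs, and went from -0.45 to -0.12 over the 8 with Hdac2. The r of Hdac4 and Prdm2 was then 0.62, that of Dnmt3a and Tet2 0.60 and that of Dnmt3a and Tet3 0.60. That of Tet3 and Prdm2 was 0.23 and that of Dnmt1 and Hdac2 -0.17, and neither passed. When run and 6 scores of cell types and RNA make-up were removed, 10 positive pairs and 1 negative pair passed. Of the 28 pairs without Hdac2, 24 were then positive, and of the 8 with Hdac2, 5 were negative. The median r was 0.22 over the 28 pairs and -0.10 over the 8. The highest r was then 0.63, for Dnmt3a and Tet3. Tet2 and Hdac2 then had an r of 0.15 and Tet1 and Hdac2 one of 0.19.

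Cell type scores moved with some genes and not with others. Hdac4 correlated with the score of cortical and basolateral excitatory neurons at 0.54 and Prdm2 at 0.42, whereas Tet1 did so at -0.43. Against the oligodendrocyte score, r was -0.57 for Hdac4, -0.45 for Prdm2 and 0.42 for Tet1. With the score of central amygdala and striatal inhibitory neurons, r was -0.47 for Hdac4, 0.38 for Dnmt3a and 0.29 for Tet1 (rho -0.48, 0.36 and 0.31). With that of thalamic, hypothalamic and medial amygdala neurons it was -0.46 for Hdac4, -0.28 for Prdm2 and 0.35 for Tet1 (rho -0.45, -0.31 and 0.29). Tet1 also correlated with the scores of oligodendrocyte precursors at 0.51 and of endothelial and mural cells at 0.48. Hdac2 went the other way on both, at -0.45 and -0.36. On endothelial and mural cells Dnmt3a had 0.44 and Hdac4 -0.33. The microglia score gave -0.43 for Hdac4, -0.35 for Kdm6b, -0.34 for Tet2, -0.33 for Prdm2 and -0.26 for Tet3. Of these, Prdm2 and Tet3 did not pass for rho. Hdac4 also had 0.39 with ependymal motile cilia and 0.33 with choroid plexus. Further cell type relations that passed are not listed. Spearman's rho on the excitatory neuron score was 0.44, 0.37 and -0.39 for Hdac4, Prdm2 and Tet1, and on the oligodendrocyte score -0.56, -0.45 and 0.37. Within runs, the r of Hdac4 with the excitatory neuron score lay between 0.34 and 0.69. The inhibitory neuron score was less steady within runs, at -0.10 to 0.81 for Dnmt3a, -0.03 to 0.60 for Tet1 and -0.66 to -0.24 for Hdac4. All of these r over the 84 animals passed, as did immediate early genes, which neurons switch on with activity, with Prdm2 (0.54), Tet3 (0.48), Hdac4 (0.47) and Kdm6b (0.34), with rho of 0.49, 0.46, 0.41 and 0.30. Tet1 went the other way on immediate early genes, at -0.28 (rho -0.26), which passed for r but not for rho. The 29 inhibitory neuron genes tested summed to between 2431 and 12415 CPM in females and between 2381 and 13938 CPM in males. The 20 excitatory neuron genes summed to between 737 and 4979 CPM in females and between 966 and 5262 CPM in males. The 20 oligodendrocyte genes summed to between 1577 and 22518 CPM in females and between 1475 and 16750 CPM in males, and no gene of either list had a median count of 0. The r with total count lay between -0.09 and 0.09 for all 9 genes, and none passed. Leaving out the 5 libraries of highest choroid plexus score, a step also added after the values had been seen, left 25 positive and 8 negative pairs.

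**Figure D4:**
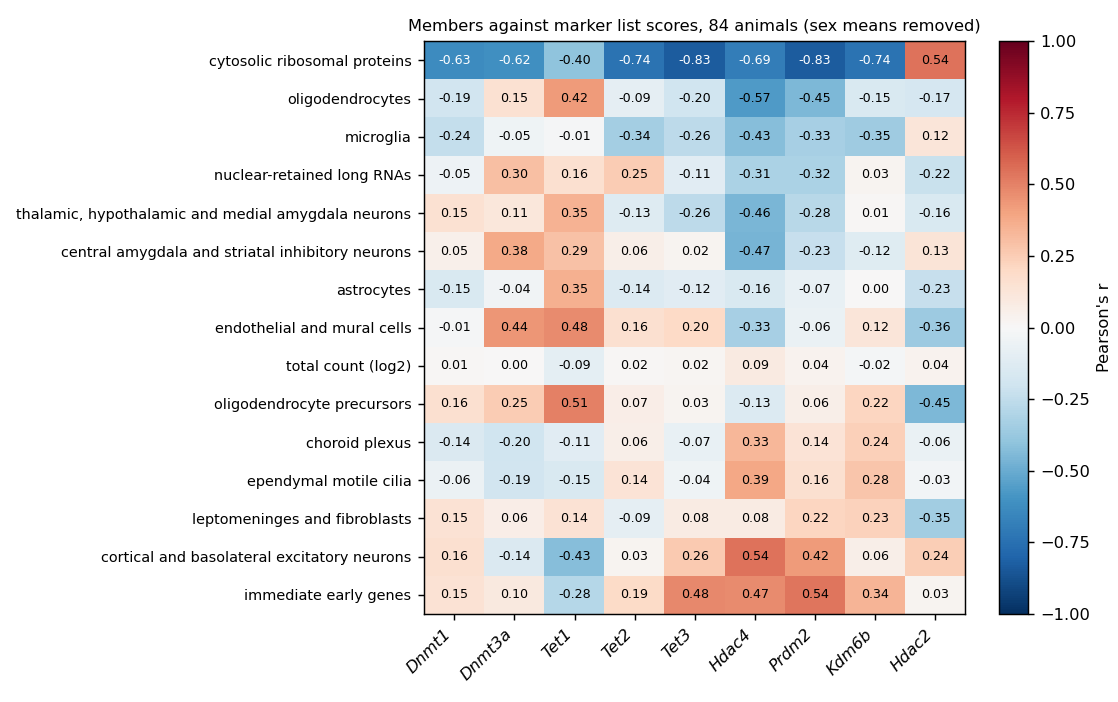
Pearson's r between log2 CPM of each gene and the score of each marker list or the log2 total count, over 84 animals with sex means removed. Cytosolic ribosomal proteins give the strongest colours, negative for 8 genes and 0.54 for Hdac2, and Hdac4 and Tet1 differ in sign on excitatory neurons and oligodendrocytes.

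Genes that tracked the 9 over these libraries differed from the rest in exon length. The lists for the 9 were drawn from the same libraries and from correlated genes, so they are not 9 separate results. Among 13365 genes compared, those with an r of at least 0.5 to one of the 8 genes other than Hdac2 had a median exon length of 6094 to 7428 bases, and those with an r of at most -0.5 had 1772 to 2240 bases. The median of all genes compared was 3986 bases. For Hdac2 the order was turned round, at 2449 bases for 1140 genes on the positive side and 6723 bases for 557 on the negative side. This reversal goes with its negative r to the other 8 and adds no separate evidence. Of the 9 genes Hdac2 has the shortest merged exons, 4474 bases, and Dnmt3a the longest, 16642 bases. Even the 4474 bases of Hdac2 are above the median of 3986 bases. Whether length has a part in the correlations was not tested.

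The genes most like each of the 9 over the 84 animals were picked by r alone, leaving out the 9 themselves. Prdm2 had the closest partners, Trio and Elfn2, at 0.93 each. Tet3 was closest to Atxn1l (0.90) and Pde4dip (0.89), Hdac4 to Ncoa1 (0.88) and Srgap3 (0.87), and Dnmt3a to Kmt2a (0.87) and Cdc42bpa (0.84). Tet2 was closest to Birc6 (0.85) and Zfp445 (0.84), Kdm6b to Capn15 (0.84) and Baz2a (0.83), and Dnmt1 to Ube2o (0.83). Hdac2 was closest to Smu1 and Matr3, at 0.82 each, and Tet1 to Sp1 (0.81) and Agap1 (0.79). Ncoa1 and Kmt2a encode a histone acetyltransferase coactivator and a histone methyltransferase.

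Hdac2 was the only one of the 9 that differed between runs of sample-sheet numbers (edgeR adjusted p = 0.00402), where 21.7% of all genes tested did. Its median was 86.1, 84.6, 78.8 and 92.2 CPM in females of runs 1 to 4 and 84.3, 76.6, 74.7 and 90.4 CPM in males. Both sexes were lowest in run 3 and highest in run 4. Prdm2 had an unadjusted p of 0.0277 and did not pass (edgeR adjusted p = 0.0907), and the other 7 had adjusted p from 0.150 to 0.327.

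The study asked how expression relates to ethanol preference, the ethanol solution drunk as a share of all fluid by volume, in all animals and then in each sex. Mean preference over 13 weeks ran from 0.0435 to 0.759 with a median of 0.229 in females and from 0.0262 to 0.713 with a median of 0.153 in males. Averaged within runs, it ranged from 0.173 in run 3 to 0.353 in run 2 in females, and from 0.159 to 0.240 in males. None of the 9 genes passed the test for it, and neither did any other gene: the share called was 0.0% in all animals, 0.0% in females and 0.0% in males. At an unadjusted p under 0.05 there were 643, 1135 and 270 of the 16320 genes, and 0 of the 9 in each. DESeq2 and limma-voom called 0 of the 9 as well. Each slope below is the log2 change that goes with a preference higher by 0.5, ± SE.

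For the DNA methyltransferases, the slope was -0.08 ± 0.08 in females and 0.02 ± 0.10 in males for Dnmt1, and -0.06 ± 0.12 in females and 0.06 ± 0.14 in males for Dnmt3a. Over all 84 animals it was -0.04 ± 0.06 for Dnmt1 and -0.01 ± 0.09 for Dnmt3a, with 95% intervals of -0.16 to 0.08 and -0.20 to 0.18. A Dnmt1 change beyond 0.894-fold or 1.06-fold per 0.5 rise therefore lies outside the interval.

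The Tet genes had slopes of -0.05 ± 0.15 in females and 0.13 ± 0.16 in males for Tet1, 0.01 ± 0.13 and 0.11 ± 0.16 for Tet2, and -0.07 ± 0.15 and 0.21 ± 0.18 for Tet3, females before males. Over all animals they were 0.03 ± 0.11, 0.05 ± 0.10 and 0.05 ± 0.12 for Tet1, Tet2 and Tet3. The slope of Tet3 in males was the largest of the 27, and its 95% interval of -0.16 to 0.59 is also among the widest. Without the 2 animals of most extreme preference it was 0.43 ± 0.22, which did not pass either (edgeR adjusted p = 0.936).

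Hdac2 had slopes of -0.05 ± 0.08 in females, -0.04 ± 0.10 in males and -0.05 ± 0.06 over all animals, an interval of -0.18 to 0.08. With run as a term, the Hdac2 slope over all animals was -0.10 ± 0.06. Hdac4 had 0.14 ± 0.14 in females, 0.05 ± 0.17 in males and 0.10 ± 0.11 over all animals. Its slope in females was 0.00051 ± 0.15 without the 2 extreme animals and 0.26 ± 0.15 with run as a term. Prdm2 had -0.04 ± 0.13, 0.14 ± 0.17 and 0.03 ± 0.11 in females, males and all animals. Kdm6b had 0.03 ± 0.17, 0.20 ± 0.18 and 0.10 ± 0.12 in the same order. All 27 edgeR adjusted p-values were at least 0.9995. The test of the difference between the sexes' slopes called 0 of the 9 and 0.0% of all genes (529 at an unadjusted p under 0.05, of which 0 of the 9). The differences, female minus male, lay between -0.28 and 0.09, and none passed.

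**Figure D5:**
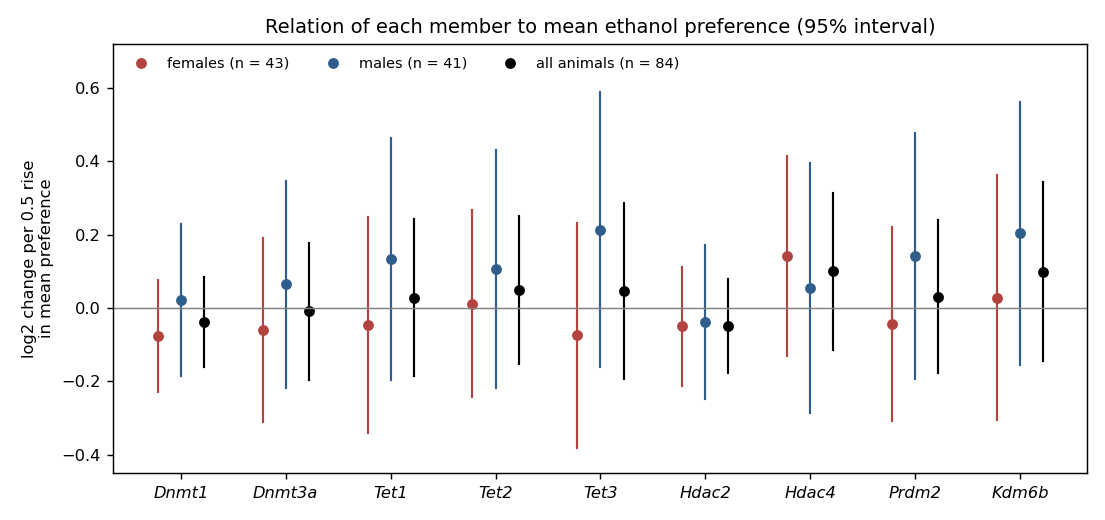
Log2 change per 0.5 rise in mean ethanol preference for each gene in females, males and all animals, as points with 95% intervals. All 27 intervals cross 0, and those of Dnmt1 and Hdac2 are the narrowest.

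Preference in the first and the last week gave no call among the 9 either. For week 1, the share of all genes called was 0.0306% in all animals (5 genes), 0.0% in females and 0.0368% in males (6 genes). The 9 slopes ran from -0.08 to 0.05 in females, from -0.02 to 0.29 in males and from -0.05 to 0.15 over all animals. For week 13, the share called was 0.0% in all animals, 0.0368% in females (6 genes) and 0.0% in males. The 9 slopes ran from -0.06 to 0.19 in females, from 0.01 to 0.26 in males and from -0.03 to 0.13 over all animals. The lowest unadjusted p in these 6 fits was 0.0622, and the median slope of all genes tested lay between -0.0019 and 0.0064.

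Intake, in g of ethanol for each kg of mouse, ran from 0.689 to 15.2 as a mean over the weeks in females and from 0.453 to 12.1 in males. The 9 slopes per 10 g/kg ran from -0.04 to 0.19, and 0 passed (edgeR, lowest adjusted p = 0.716), where 0.049% of all genes (8 genes) did. The lowest unadjusted p was 0.0712. With run as a further term, 0 of the 9 passed in any of the fits of preference, intake or sex.

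The test was also run on other genes of the same classes. Lists of 23 genes that read, write or remove DNA methylation, 35 of histone deacetylases and their complexes, 17 of histone acetyltransferases, 52 of histone methyltransferases and 22 of histone demethylases were tested, leaving out the 9. None of these genes was called by edgeR in any of the fits of preference or intake. For mean preference over all animals 1, 1, 0, 0 and 0 of them had an unadjusted p under 0.05, and their median slopes for mean preference over all animals lay between 0.01 and 0.03, against -0.0016 for all genes. Between the runs, 5, 5, 3, 9 and 2 of them were called, 9.09% to 21.7% of a list against 21.7% of all genes. Setdb1, a silencing methyltransferase (edgeR adjusted p = 0.00114), Prmt8, an arginine methyltransferase of neurons (0.00176), and Prdm6, a relative of Prdm2 (0.00506), had the smallest p among the methyltransferases. Prdm6 was barely counted, with medians of 0.876 CPM in females and 0.661 CPM in males and a lowest value of 0 in both sexes. Gadd45b (0.00583), Cxxc4 (0.00741) and Zbtb4 (0.0176) had the smallest among the DNA methylation genes. Of the deacetylase list these were Rcor2 (0.00602), Hdac7 (0.0156) and Sirt1 (0.0293), of the acetyltransferases Hat1 (0.00688), Kat2b (0.0182) and Kat8 (0.0214), and the 2 demethylases were Kdm4c (0.0219) and Kdm4a (0.0441).

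By sex, 4 of the 22 demethylases differed, 2 higher and 2 lower in females, and 0 genes of the other lists. Kdm5d and Uty lie on the Y chromosome and had at most 0.100 and 0.0987 CPM in females against medians of 23.1 and 15.1 CPM in males. Kdm6a, the X-linked relative of Kdm6b, had a median of 36.6 CPM in females against 26.4 CPM in males, a log2 difference of 0.40 ± 0.05 (edgeR adjusted p = 1.05e-09). The remaining gene was X-linked Kdm5c, higher in females and named here after its values had been seen. Kdm6b itself, as given above, did not pass.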

How the data were processed

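RNA was sequenced from the CeA of 84 mice, 1 library each. The deposited values are raw, not normalized read counts for each gene, per the labels, made with FastQC, STAR and featureCounts 1.6.0 on GRCm38 (mm10), per the submitters' processing notes. DESeq2 is named there too. Which annotation release and which strand setting were used is not given in the sources used here. A further 8 columns (3 of undetermined reads, 5 empty) were not used.

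Sex, weekly preference and intake came from the labels. The 9 genes and the gene lists were chosen with earlier results of these data known. All 9 were named with levels, spread, slopes and sex difference, with the 5 highest and 5 lowest pairs, the 2 most alike genes each (average log2 CPM of at least 1, 1 of them not reported here), and the 3 genes of smallest p per list.

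Genes were kept by filterByExpr (minimum count 10, minimum total 15, 16320 genes), scaled by TMM and tested with edgeR 4.0.16's robust quasi-likelihood F-test in R 4.3.3. p-values were Benjamini-Hochberg adjusted over all genes and called under 0.05. Sex was a term in fits over all animals. The ± values are SE. CPM and RPKM were computed here from TMM-scaled totals and merged exon lengths. Pairs used log2 CPM with a prior count of 2 and scipy 1.17.1. A list's score is the mean z-score of its genes.

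Precision rests on 43 females and 41 males with at least 24118965 counts each. The median SE of a slope over all genes was 0.11 in all animals, 0.14 in females and 0.17 in males. Relatives share families, and family is not given per animal, so the animals were not fully independent. Alternatives were other scaling, no filter, DESeq2 1.42.0, limma-voom (limma 3.58.1), run or marker scores as covariates, and leaving out animals. The fits were tested on simulated data.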

Additional observations from a re-analysis of the deposited data

How the results depend on the processing

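The count of the 9 genes called, 0 in every fit of preference, intake and sex and 1 between runs, did not change under any alternative run. Hdac2 kept an adjusted p between 0.00141 and 0.0103 between runs, and Prdm2 one between 0.0661 and 0.125. The number of all genes called moved more. With no filter on low counts it was 53, 23 and 16 for mean preference (all animals, females, males), 69, 10 and 51 for week 1, 71 and 31 for week 13 in all animals and males, 90 for intake, 21 for the sex by preference term and 74 for sex. DESeq2 called 2 for mean preference in males, 3 and 2 in males at weeks 1 and 13 and 1 for the sex by preference term. limma-voom, and likewise the marker score covariates, left 0 for week 1 in all animals and in males and 1 for intake. Run as a term gave 2 for week 1 in males, 0 for intake and 1 for the sex by preference term. Without male replicate 39 week 1 had 0 in all animals and in males. Without the 2 extreme animals it had 0 in both, intake had 0 and week 13 in males had 1. For week 13 in females, where 0.0368% of genes passed, the share was 0.308% with no filter, 1.26% with DESeq2, 0.147% with run as a term, and 0% with limma-voom and with the marker scores.

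Among the slopes for mean preference and the sex differences of the 9, none of which passed, these changed sign. For mean preference in all animals Dnmt3a became 0.0073 with run, 0.052 without the 2 extreme animals and 0.073 with marker scores. In females Tet2 became -0.0067 with no filter, -0.0040 with limma-voom and -0.010 without the 2 extreme animals, Kdm6b -0.060 with limma-voom, -0.135 without the 2 extreme animals and -0.0050 with marker scores, Prdm2 0.048 with run and Hdac2 0.00025 without the 2 extreme animals. With marker scores, Dnmt3a became 0.068 and Tet1 0.0016 in females. Without the 2 extreme animals, the slope of Tet3 over all animals was 0.126. The female over male difference became -0.0065 for Hdac4 without male replicate 39 and -0.010 for Dnmt3a with marker scores.

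Of the pairs, 10 positive and 1 negative passed with run and 6 scores of cell types and RNA make-up removed together, where Tet2 and Hdac2 had 0.150 and Tet1 and Hdac2 0.192. With the ribosomal protein score alone removed, 14 positive and 7 negative passed. Elsewhere 24 to 27 positive and 7 or 8 negative passed. The cause was not tested. Tet1, at 135 to 432 counts a library, is limited most by depth. No paired analysis was possible because replicate numbers only follow the order of listing.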
